A study of Homo sapiens with 24 samples.

Results

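The insulin-like growth factor (IGF) axis was followed in 3 colorectal cancer cell lines with and without β-catenin. Its members were taken by name: the ligand IGF2, the receptors IGF1R, INSR and IGF2R, and the binding proteins IGFBP2, IGFBP3, IGFBP4, IGFBP5, IGFBP6 and IGFBP7. All 10 were matched by Ensembl identifier among the 58051 genes listed for each library. They were compared between KO and WT within each line, between clones of a genotype, and between the WT cells of the lines.

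IGF2 is a secreted growth factor that binds the tyrosine kinase receptor IGF1R and, in one of its isoforms, the insulin receptor INSR, and both receptors signal through IRS adaptors to PI3K and AKT. IGF2R, the cation-independent mannose-6-phosphate receptor, has no kinase and carries IGF2 to lysosomes for degradation. The secreted IGFBPs hold IGFs away from their receptors, and proteases such as PAPPA release the ligand by cutting them. In colorectal tumours IGF2 is among the genes best known for overexpression.

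RNA was sequenced from HT29, HCT116 and SW480, established human colorectal carcinoma lines of which HT29 and SW480 carry APC mutations and HCT116 an activating CTNNB1 mutation. KO clones had both alleles of CTNNB1, the gene of β-catenin, disrupted with CRISPR/Cas9 by removing exon 7, which shifts the reading frame, and WT clones kept an intact CTNNB1 after the same procedure. Each line gave 2 KO clones (HT29 28 and 38, HCT116 44 and 47, SW480 17 and 21) and 2 WT clones (HT29 11 and 40, HCT116 4 and 6, SW480 4 and 5). Each clone descends from 1 cell and gave 2 libraries, A and B. The study describes 2 independent biological replicates per clone, and A and B are taken to be these rounds. A group of 4 libraries therefore held 2 clones. Its p-values treat the 2 libraries of a clone as separate replicates, though they share 1 clone. All cells grew in DMEM with fetal calf serum, and no agent was added.

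Recovered reads on genes ran from 22297049 to 29068378 per library over the 24 libraries. CTNNB1 was low in each library labelled KO, which held 4.98% of the WT mean in HT29, 1.83% in HCT116 and 2.18% in SW480. Of 7 colon epithelial markers, KRT8 and EPCAM were present in every library, whereas CDX2 was near 0 in HT29, VIL1 near 0 in HCT116 and SW480, and CDH1 low in SW480 at 0.522 to 2.36 TPM in WT. The leukocyte marker PTPRC stayed at or below 4.28 normalized counts (reads divided by the size factor of the library). It was 1 of 4 markers of other cell types found, whose summed TPM reached 10.8 in SW480 WT. In each group of HCT116 and SW480, 2 of the 4 stayed under 1 TPM in every library. In bulk RNA, fewer cells of a kind and less RNA per cell cannot be told apart. The library KO 38B of HT29 stood apart from KO 38A by gene length: between rounds, genes with merged exons under 2000 bases rose by a median of 0.57 on the log2 scale and genes over 8000 bases fell by 0.39. The next widest pair was HCT116 KO 47, with medians of -0.30 and 0.21. For KO against WT, results without KO 38B are given where they bear on a member.

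The upstream sequences of INSR, IGFBP3 and IGFBP6, 3 members called in KO cells that were chosen after their values were seen, are shown first, because loss of β-catenin removes the partner of the TCF/LEF proteins, which bind near genes. Each line gives the 250 bases before the annotated start, 5′ to 3′ on the strand of the gene, from RefSeq on GRCh38.p14, with CG dinucleotides in capitals. INSR lies on the minus strand at chr19:7294415-7294664, IGFBP3 on the minus strand at chr7:45921273-45921522, and IGFBP6 on the plus strand at chr12:53097417-53097666.
INSR: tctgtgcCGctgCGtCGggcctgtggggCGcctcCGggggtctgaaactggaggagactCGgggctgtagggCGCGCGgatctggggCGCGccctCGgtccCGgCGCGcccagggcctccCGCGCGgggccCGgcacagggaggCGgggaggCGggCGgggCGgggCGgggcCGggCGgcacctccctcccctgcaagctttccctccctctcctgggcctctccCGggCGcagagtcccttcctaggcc
IGFBP3: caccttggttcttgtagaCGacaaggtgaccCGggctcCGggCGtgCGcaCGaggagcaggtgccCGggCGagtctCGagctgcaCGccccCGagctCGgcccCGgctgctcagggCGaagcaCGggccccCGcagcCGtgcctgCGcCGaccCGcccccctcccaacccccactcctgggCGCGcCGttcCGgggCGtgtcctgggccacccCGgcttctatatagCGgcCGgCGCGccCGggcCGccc
IGFBP6: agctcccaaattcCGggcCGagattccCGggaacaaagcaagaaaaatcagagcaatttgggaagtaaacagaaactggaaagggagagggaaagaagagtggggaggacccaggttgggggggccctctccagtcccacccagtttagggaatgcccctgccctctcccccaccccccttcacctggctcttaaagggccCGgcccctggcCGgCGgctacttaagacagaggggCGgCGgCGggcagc
INSR held 28 CG dinucleotides and IGFBP3 32, against a median of 11 over 35116 such windows, while IGFBP6 held 9. The TCF/LEF core CTTTGA, read on either strand, occurred in 11.2% of all windows and in 0 of the 10 windows that 8 of the members had in the table. With so few windows of 250 bases, this count cannot tell whether the members have TCF/LEF sites. IGF2 and IGFBP7 had no entry. In the GRCh37 build of the counts, the whole genes span chr19:7112266-7294425 (INSR), chr7:45951844-45961473 (IGFBP3), chr12:53491220-53496129 (IGFBP6) and chr11:2150342-2179621 (IGF2).

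Levels in WT cells were set side by side first, as TPM, which divides by gene length so that genes can be compared. The lines differed mostly in which binding proteins they expressed. HT29 WT cells expressed IGFBP6 at 659 ± 208 TPM and IGFBP4 at 312 ± 78.1 TPM (mean ± SD, n = 4 here and below). IGFBP6 also led in HCT116, at 119 ± 26.7 TPM, together with IGFBP2 at 108 ± 17.8 TPM, and the ranges of these 2 genes overlapped. SW480 expressed IGFBP4 at 617 ± 31.6, IGFBP7 at 571 ± 36.01, IGFBP6 at 432 ± 54.3, IGFBP2 at 186 ± 11.9, IGFBP3 at 51.7 ± 26.8 and IGFBP5 at 1.25 ± 0.373 TPM. Thus 2 of the 6 binding proteins exceeded a mean of 1 TPM in HT29 and in HCT116, and 6 of 6 did in SW480. Their summed level was 971 ± 280.2 TPM in HT29, 227 ± 35.7 TPM in HCT116 and 1859.5 ± 125 TPM in SW480.

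Receptors were expressed at lower levels. IGF1R and IGF2R overlapped in HT29, at 15.7 ± 3.96 and 15.6 ± 4.08 TPM, and lay above INSR at 0.913 ± 0.366 TPM. In HCT116 the order was IGF2R at 15.2 ± 2.47, INSR at 9.52 ± 2.004 and IGF1R at 3.82 ± 1.29 TPM, with every HCT116 library of one receptor above those of the next. SW480 had IGF2R at 47.7 ± 4.64, IGF1R at 13.7 ± 1.80 and INSR at 6.30 ± 0.198 TPM, also without overlap. The ligand IGF2 reached 6.41 ± 1.98 TPM in HT29, 5.52 ± 2.07 in HCT116 and 1.72 ± 0.595 in SW480.

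**Figure D1:**
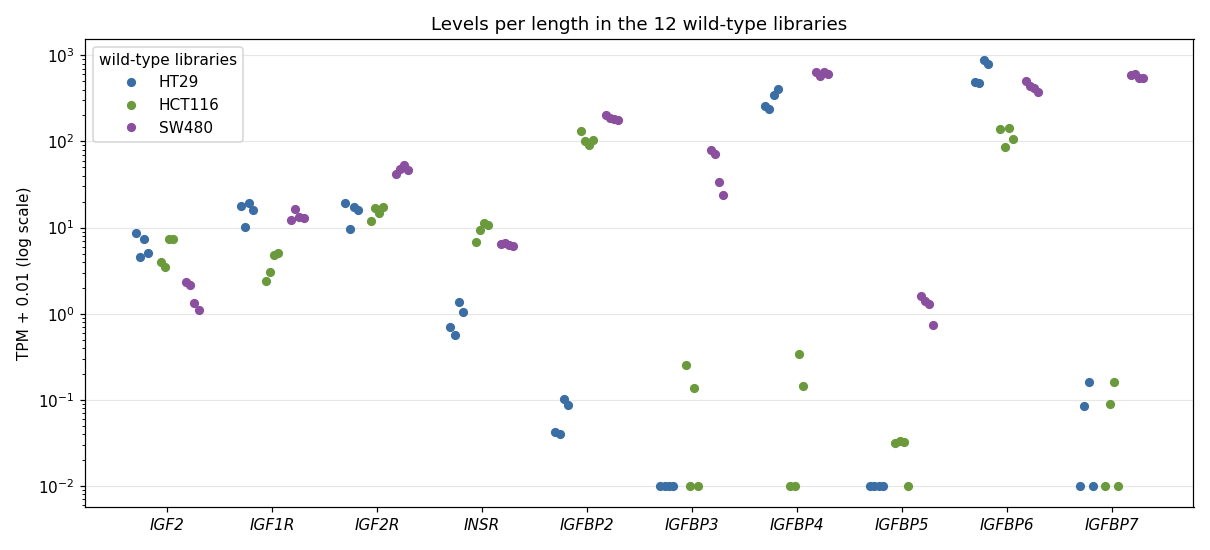
TPM plus 0.01 on a log axis for each member in the 12 WT libraries, 4 points per line. HT29, HCT116 and SW480 share IGFBP6 but separate at IGFBP2, IGFBP3, IGFBP4, IGFBP5 and IGFBP7, where lines without the transcript lie below 1 TPM.

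Differences between WT lines were tested with limma on log2 of the normalized count plus 1, a scale that understates changes of low genes, with Benjamini-Hochberg adjustment over all genes tested, and called where adjusted p was under 0.05 and the log2 difference over 1 in size. HCT116 differed from HT29 in 5 of 10 members, with 37.5% of all genes called. SW480 differed from HT29 in 7 members, against 40.1% of all genes, and from HCT116 in 8 members, against 40.2%. Leaving out any 1 of the SW480 WT libraries (4A, 4B, 5A or 5B) lowered these counts to 4 and 5, because IGFBP3, IGFBP5 and IGFBP7 then missed the filter on low values. All of them were near 0 in HT29 and HCT116 WT and passed the filter only through SW480. They had little room to differ between HT29 and HCT116, and a high SW480 value was needed for them to be tested. INSR was the receptor that set HT29 apart: its log2 difference was 3.35 (SE 0.24, limma adjusted p = 4.50e-08) in HCT116 and 2.73 (SE 0.24, adjusted p = 3.02e-07) in SW480, both against HT29. IGF1R was 2.14 lower on the log2 scale in HCT116 than in HT29 (log2 difference -2.14, SE 0.23, limma adjusted p = 2.25e-06), and its SW480 value did not pass against HT29 (log2 difference -0.30, adjusted p = 0.276). IGF2R was higher in SW480 than in HT29 (log2 difference 1.53, SE 0.16, limma adjusted p = 2.01e-06). IGF2 was lower in SW480 than in HT29 (log2 difference -2.02, SE 0.32, limma adjusted p = 6.77e-05), while HCT116 and HT29 did not pass (-0.32, adjusted p = 0.395).

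Several binding proteins were at or near 0 in a whole line, where a fitted fold depends on the value added before taking logs. For these, ratios of recovered reads scaled by the size factors are given with exact 95% intervals, which cover counting error only. IGFBP2 gave 7 reads over the 4 HT29 WT libraries and was 1787 times higher in HCT116 WT (interval 867 to 4445). IGFBP4 gave 7 reads over the 4 HCT116 WT libraries and was 2782 times higher in HT29 WT (interval 1349.7 to 6919). IGFBP7 gave 3 reads in HT29 WT and 27975 in SW480 WT, a ratio of 8655 (interval 2961 to 41974). IGFBP3 and IGFBP5 were at 0 reads in HT29 WT. Set against a floor of 3 reads over the group, IGFBP3 was at least 1868-fold higher and IGFBP5 at least 63.7-fold higher in SW480 WT. One limit touches IGFBP7: of its merged exons, 13.5% overlap POLR2B on the opposite strand, and the library kit does not mark strand. IGFBP7 reads in lines where it was near 0 were nevertheless at most 2 per WT library.

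**Figure D2:**
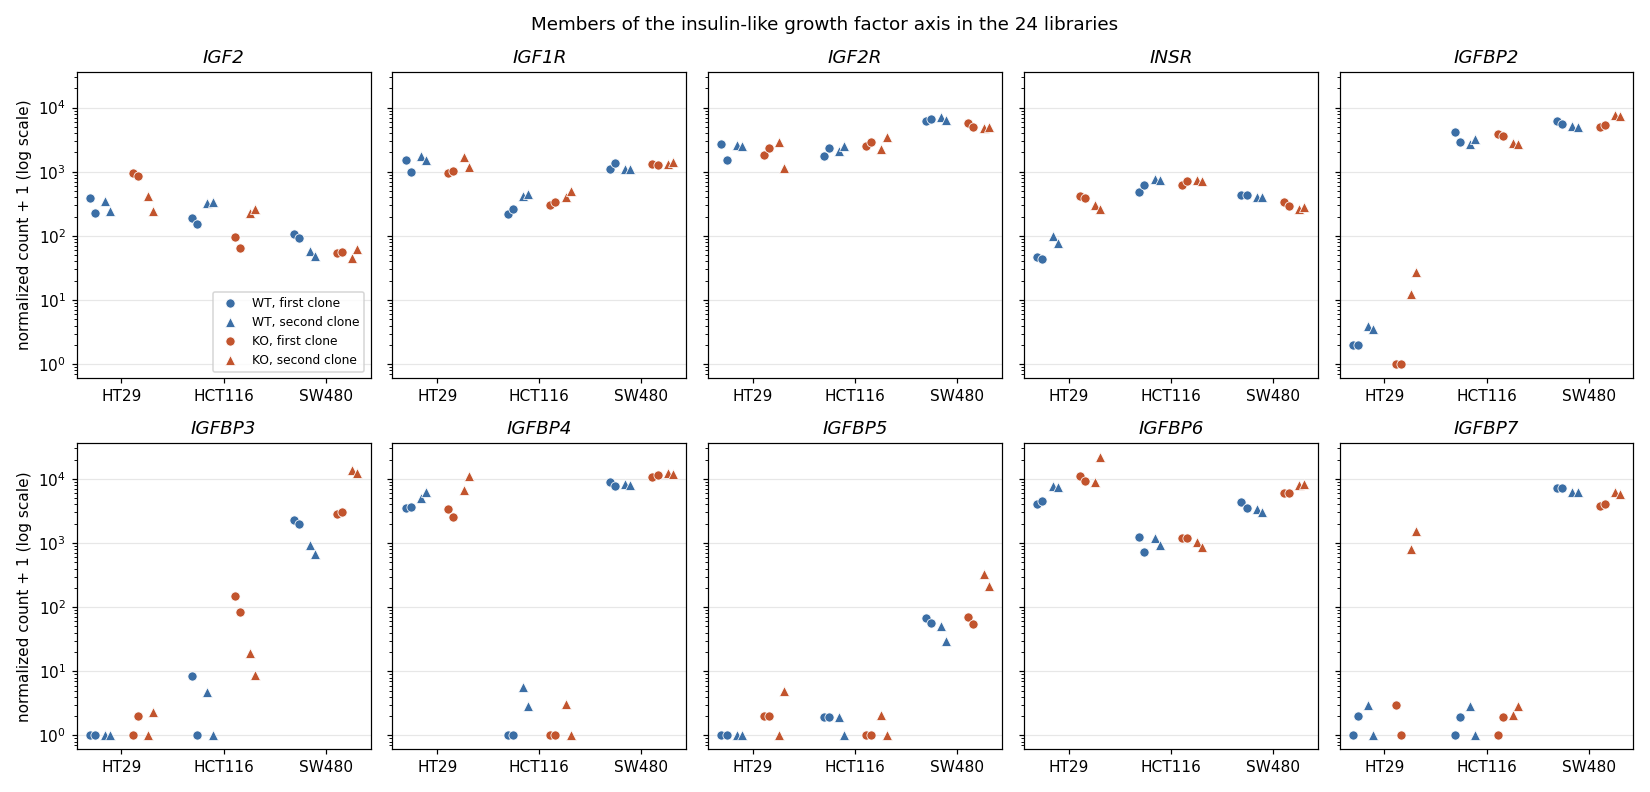
Normalized count plus 1 on a log axis in each of the 24 libraries, with WT in blue, KO in orange, circles for the clone with the lower number and triangles for the other. INSR in HT29 and IGFBP3 in SW480 separate KO from WT, and IGFBP7 in HT29 is high in KO 38 alone, at 813 and 1556.

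Within HT29, 6 of 10 members passed the filter of a normalized count of at least 10 in at least 4 libraries. INSR was the member that rose in HT29 KO cells, and it did so in both clones. IGFBP6 was higher in every KO library but missed the adjusted threshold, and IGF2 was higher in one KO clone only. The other members tested, IGF1R, IGF2R and IGFBP4, did not pass.

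INSR, which takes up insulin and IGF2 signals at the cell surface, had normalized counts of 46.1 and 42.6 in HT29 WT 11, 98.8 and 77.7 in WT 40, 418 and 385 in KO 28, and 306 and 264 in KO 38. Every KO library lay above every WT library, and KO 28 lay above KO 38. The mean was 5.18 times the WT mean, 343 ± 70.5 against 66.3 ± 26.8, and the log2 difference was 2.42 (SE 0.32, limma adjusted p = 0.00587). It was the only call among the 6 members, 1 rising and 0 falling, where 2.08% of all genes rose, 0.476% fell and 2.30% passed with a log2 change over 1. Against the WT mean, KO 28 differed by 2.67 and KO 38 by 2.17 on the log2 scale. Over 21 alternatives the adjusted p ran from 5.48e-10 to 0.527 and passed in 20. The exception averaged the rounds of each clone, which left 2 clones against 2.

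The HT29 WT clones differed in INSR as well, by 0.97 on the log2 scale (WT 40 minus WT 11, limma adjusted p = 0.0422). That is smaller than either KO clone's distance from the WT mean. As a ratio of TPM within a library, IGF1R over INSR had a median of 16.7 (14.02 to 25.8) in HT29 WT and 2.75 (1.78 to 4.27) in HT29 KO.

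IGFBP6, a binding protein with a preference for IGF2, had 4056 and 4519.9 normalized counts in WT 11, 7859 and 7391 in WT 40, 11280.2 and 9369 in KO 28, and 9082 and 21891 in KO 38. The KO libraries did not overlap the WT libraries, and KO 38B was far above the other 3. INSR and IGFBP6 were the 2 of 6 members without overlap, where 13.0% of all genes had none. The KO mean was 2.17 times that of WT, with a log2 difference of 1.08 (SE 0.33) that did not pass (limma adjusted p = 0.146). DESeq2 called it (adjusted p = 0.0424), which was 1 of 21 alternatives to do so. With merged exons of 1346 bases it belongs to the short genes that were higher in KO 38B, and without that library its log2 difference was 0.79 (limma adjusted p = 0.162).

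IGF2 had 389 and 228 normalized counts in WT 11, 349 and 247 in WT 40, 941 and 869.9 in KO 28, and 419 and 244 in KO 38. KO 28 was above all other libraries, whereas KO 38 lay within or just above the WT range. The log2 difference of 0.86 (SE 0.43) did not pass (limma adjusted p = 0.363), and without KO 38 it was 1.61 (limma adjusted p = 0.0135). Reads from INS-IGF2, whose exons cover 20.4% of those of IGF2, stayed at or below 2 normalized counts.

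Among the members not called in HT29, IGFBP4 split by clone, with 3338 and 2575 in KO 28, 6741 and 11145 in KO 38, and 3519 to 6137 in WT. IGF1R ran from 959 to 1683 in KO and from 994 to 1783 in WT. IGF2R, the longest member with 22613 bases of merged exons, ran from 1137 in KO 38B to 2952 in KO 38A, so that its widest gap lay within 1 clone. Without KO 38B the log2 difference turned from -0.23 to 0.02 for IGF2R and from 0.17 to -0.22 for IGFBP4, none past the threshold.

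IGFBP7, an IGFBP-related protein secreted into the matrix, missed the filter in HT29 because it passed 10 counts in 2 libraries only. It was at 813 and 1556 normalized counts in KO 38A and 38B, at 2.01 and 0 in KO 28, and at 0 to 1.98 in WT. Tested without the filter, KO against WT did not pass (limma adjusted p = 0.558). Over the 2 libraries of KO 38 the ratio to WT was 1442 (interval 493 to 6997) and that to KO 28 was 1136 (interval 314 to 9386), counting error only. IGFBP2 followed the same split at a low level, with 11.4 and 25.9 in KO 38, 0 and 0 in KO 28, and 0.960 to 2.96 in WT. IGFBP3 and IGFBP5 had at most 3 reads in any HT29 library.

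Directly compared, the HT29 KO clones differed in 2 of 6 members by the same thresholds, where 12.5% of all genes did. IGF2 was lower and IGFBP4 higher in KO 38 than in KO 28, with log2 differences of -1.498 (SE 0.35, limma adjusted p = 0.0267) and 1.56 (SE 0.26, adjusted p = 0.00706). KO 38B widened both differences, and this contrast was not refitted without it. In KO 38A alone IGF2 was at 419 normalized counts, against 941 and 870 in KO 28. IGFBP4 was at 6741 in KO 38A, against 3338 and 2575. The HT29 WT clones gave 0 of 6 where 7.58% of all genes passed. Without the size threshold INSR passed, 2 members had an unadjusted limma p under 0.05, and edgeR also gave 0 by both thresholds.

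In HCT116, 6 members passed the filter and 0 were called, rising or falling, where 8.05% of all genes rose, 5.93% fell and 5.06% passed with a log2 change over 1. IGF2R had an unadjusted limma p of 0.0456, the only member of the 6 under 0.05, and edgeR and DESeq2 called 0. Its normalized counts were 1755 and 2342 in WT 4, 2113 and 2506 in WT 6, 2493 and 2914 in KO 44, and 2237 and 3423 in KO 47. In both genotypes round B was above round A, and the groups overlapped. The log2 difference was 0.34 (SE 0.15, limma adjusted p = 0.160). Rounds paired the libraries in this line, and with the round as a block the adjusted p was 0.0480, which made IGF2R the 1 call.

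IGF2 was lower in 1 HCT116 KO clone. It had 186 and 153 normalized counts in WT 4, 326 and 339 in WT 6, 95.3 and 64.1 in KO 44, and 224 and 262 in KO 47. KO 44 lay below all other libraries and KO 47 within the WT range. The log2 difference was -0.78 (SE 0.46, limma adjusted p = 0.290), and without KO 47 it was -1.59 (adjusted p = 0.0109). H19, the noncoding RNA that neighbours IGF2 in an imprinted domain, ran from 20.4 to 237 normalized counts in HCT116 WT and from 9.63 to 33.4 in KO, and it did not pass (limma adjusted p = 0.105).

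INSR in HCT116 KO cells ran from 623 to 732 normalized counts and in WT cells from 483 to 767, with a log2 difference of 0.12 (SE 0.15, limma adjusted p = 0.665). IGF1R ran from 308 to 496 in KO and from 219 to 456 in WT, where WT 6 was above WT 4 by 0.86 on the log2 scale. IGFBP2 ran from 2667 to 3914 in KO and from 2718 to 4139 in WT, and IGFBP6 from 858 to 1209.5 and from 712 to 1228. The KO and WT ranges overlapped in all 6 members tested, while 20.5% of all genes did not overlap.

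IGFBP3, the main IGF carrier in blood, missed the filter in HCT116 because 3 libraries reached a normalized count of 10. It had 147 and 83.8 in KO 44, 18.2 and 7.61 in KO 47, and 7.34, 0, 3.70 and 0 in WT. The lowest KO library, KO 47B, lay just above the highest WT library, WT 4A, only after division by the size factors. Each of these held 8 reads. KO 44 was apart from the rest. The ratio to WT was 41.2 (interval 23.1 to 80.8) for KO 44 and 4.51 (interval 2.18 to 9.86) for KO 47, counting error only. Tested without the filter, the log2 difference was 3.92 with a limma adjusted p of 6.80e-05. That fit held 39890 genes, and its median log2 difference over all of them was 0.24, against -0.01 over the 15404 genes past the filter. Its adjusted p is therefore a weak guide. IGFBP4, IGFBP5 and IGFBP7 had at most 5 reads in any HCT116 library.

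Between the HCT116 KO clones 1 of 6 members differed, IGF2, which was higher in KO 47 than in KO 44 by 1.62 on the log2 scale (SE 0.22, limma adjusted p = 0.00225), where 3.28% of all genes did. WT clones gave 0 of 6 members where 1.44% of all genes passed. At an unadjusted limma p, 3 members were under 0.05, and edgeR gave 0 by both thresholds. Without the size threshold 1 member passed between the WT clones, IGF1R (log2 difference 0.86, limma adjusted p = 0.0257), and edgeR called 2. A limma fit blocked on round called 3 members in each of these clone contrasts by adjusted p alone, where the unblocked fit called 1 in each. Calls over all 15404 genes tested rose as well. Between KO clones they went from 1103 unblocked to 3317 blocked, and between WT clones from 402 to 2501.

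All 10 members were tested in SW480, and 6 were called: IGFBP3, IGFBP4 and IGFBP6 rose, and IGF2R, INSR and IGFBP7 fell. Of all genes 26.1% rose and 22.1% fell in this line, so shares of 3 in 10 each way stand close to that background. IGFBP3 was the only member with a log2 change over 1, where 17.5% of all genes had one. The KO and WT libraries did not overlap in 5 members, IGF2R, INSR, IGFBP3, IGFBP4 and IGFBP6, against 46.2% of all genes.

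IGFBP3 had 2284 and 1966 normalized counts in SW480 WT 4, 925 and 665 in WT 5, 2825 and 3090.0 in KO 17, and 13859 and 12478 in KO 21. All KO libraries were above all WT libraries, and KO 21 was several times above KO 17. The KO mean was 5.52 times the WT mean and the log2 difference 2.27 (SE 0.65, limma adjusted p = 0.02003). Clone by clone, KO 17 was 1.20 and KO 21 was 3.35 above the WT mean on the log2 scale. Without KO 21 the call was lost (limma adjusted p = 0.161), as it was without WT clone 5 (log2 difference 1.56, limma adjusted p = 0.119) and without the library KO 21A (1.89, adjusted p = 0.0559). Averaging the rounds of a clone (limma adjusted p = 0.105) and dropping the filter on low values (0.0764) also lost it. Over 21 alternatives the adjusted p ran from 6.08e-04 to 0.161 and passed in 16.

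IGFBP6 had 4313 and 3577 normalized counts in WT 4, 3367 and 3025 in WT 5, 6051 and 6037 in KO 17, and 8102 and 8225 in KO 21. Both KO clones stood above both WT clones, and KO 21 above KO 17. The KO mean was 1.99 times the WT mean, with a log2 difference of 0.99 (SE 0.14, limma adjusted p = 2.06e-04), and the call held in 21 of 21 alternatives (adjusted p 2.62e-10 to 0.0178). IGFBP4 rose less, from 7744 to 9052 normalized counts in WT to 10570.5 to 12281 in KO. Its log2 difference was 0.48 (SE 0.07, limma adjusted p = 3.38e-04), with all 21 alternatives past the threshold (adjusted p 2.80e-08 to 0.0296).

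INSR fell in SW480, from 439.7 and 433 normalized counts in WT 4 and 403 and 398 in WT 5 to 339 and 296 in KO 17 and 266 and 280.3 in KO 21. The KO mean was 70.6% of the WT mean, and the log2 difference was -0.51 (SE 0.10, limma adjusted p = 0.00197). IGF2R fell from 6103, 6674, 7244 and 6359.6 in WT to 5796 and 5037 in KO 17 and 4818 and 4969 in KO 21. The KO mean was 78.2% of the WT mean, and the log2 difference was -0.36 (SE 0.08, limma adjusted p = 0.00406). Averaging the rounds of each clone left INSR at an adjusted p of 0.0735 and IGF2R at 0.0756, and each passed in the other 20 alternatives. IGF1R over INSR, as a ratio of TPM within a library, had a median of 2.13 (1.92 to 2.50) in SW480 WT and 3.60 (3.05 to 3.93) in KO.

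IGFBP7 fell mainly in KO 17. It had 7252 and 7229 normalized counts in WT 4, 6249 and 6321 in WT 5, 3824 and 4099 in KO 17, and 6346 and 5853 in KO 21. The log2 difference of -0.46 (SE 0.16, limma adjusted p = 0.0357) passed in 9 of 21 alternatives, with adjusted p from 4.08e-05 to 0.225. Against the WT mean the log2 difference was -0.77 for KO 17 and -0.15 for KO 21, and without KO 17 the limma adjusted p was 0.182. Leaving out WT clone 4 or WT clone 5 also lost the call (limma adjusted p = 0.225 and 0.0668). Exons of IGFBP7-AS1 and POLR2B overlap those of IGFBP7 on the opposite strand, and reads from them cannot be told apart there.

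IGFBP5 followed the clone pattern of IGFBP3 at a lower level, with 28.4 to 65.7 normalized counts in WT, 68.7 and 53.2 in KO 17, and 322 and 214 in KO 21. The log2 difference was 1.39 (SE 0.55, limma adjusted p = 0.0615), and edgeR (adjusted p = 0.0299) and DESeq2 (adjusted p = 0.00195) called it. Without KO 17 it was 2.44 (limma adjusted p = 2.46e-04), and without KO 21 it was 0.34 (adjusted p = 0.42). IGFBP2, which lies 7668 bases from IGFBP5 on chromosome 2, had 7661 and 7465 in KO 21 against 5020.0 and 5454 in KO 17 and 5023 to 6108 in WT (log2 difference 0.22, limma adjusted p = 0.222; without KO 17, 0.48 and 0.0012). IGF1R ran from 1262 to 1404 in KO and from 1089 to 1390.3 in WT (log2 difference 0.20, limma adjusted p = 0.0944), and passed without WT 4B (limma adjusted p = 0.0118). IGF2 ran from 43.9 to 61.4 in KO, 92.8 and 106 in WT 4, and 48.0 and 57.0 in WT 5, and its log2 difference of -0.43 did not pass (limma adjusted p = 0.196), though it did without WT 5 (-0.89, limma adjusted p = 0.0119).

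The SW480 KO clones differed from each other in 2 of 10 members where 4.61% of all genes did: IGFBP3 was 2.15 (SE 0.14, limma adjusted p = 4.05e-06) and IGFBP5 was 2.10 (SE 0.28, adjusted p = 5.66e-05) higher in KO 21 on the log2 scale. The WT clones differed in 1, IGFBP3, which was lower in WT 5 than in WT 4 (log2 difference -1.43, SE 0.14, limma adjusted p = 1.80e-04), where 1.97% of all genes passed. IGFBP3 thus differed between clones of either genotype.

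**Figure D3:**
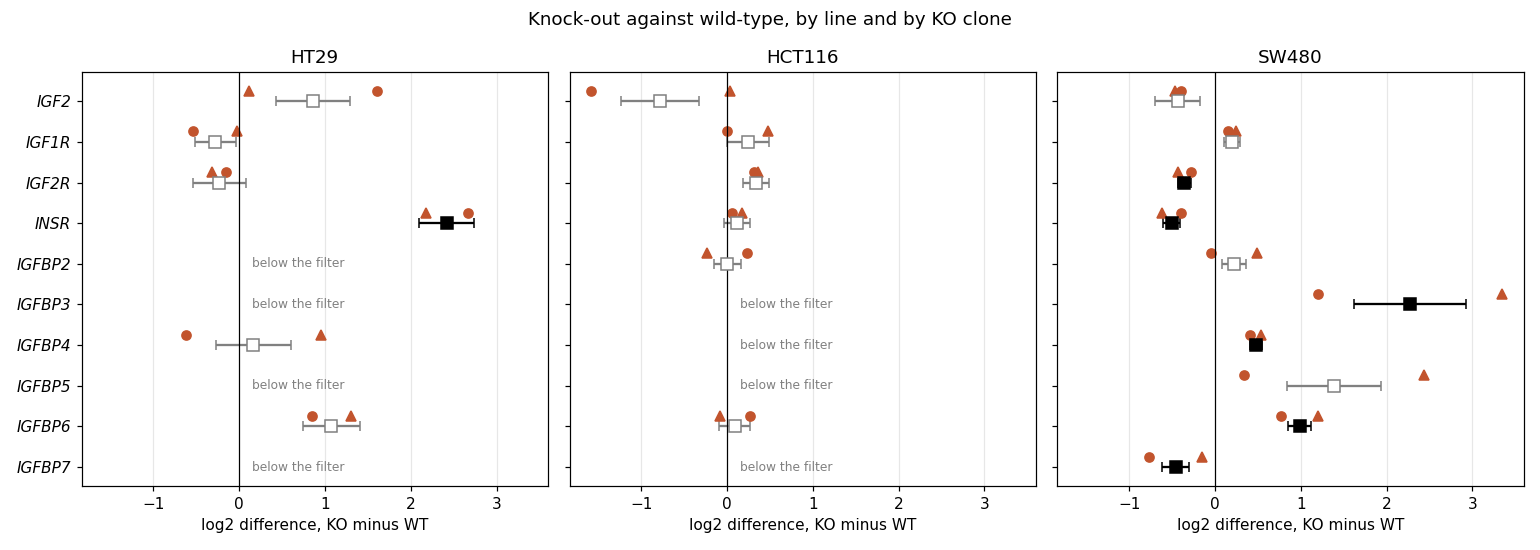
Log2 difference between KO and WT in each line, with squares for the limma estimate and bars of 1 SE, filled where adjusted p was under 0.05. The orange circle and triangle above each square are the KO clones with the lower and the higher number against the WT mean, and they part most at IGF2 and IGFBP4 in HT29, at IGF2 in HCT116 and at IGFBP3 and IGFBP5 in SW480.

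The KO effect itself was compared between lines with an interaction term in limma over the 24 libraries, called where adjusted p was under 0.05. INSR was the 1 member of 10 that differed between HCT116 and HT29, by -2.30 (SE 0.30, limma adjusted p = 3.40e-05), where 7.25% of all genes differed. Of the 10, IGFBP3, IGFBP5 and IGFBP7 passed the filter over the 24 libraries only through SW480. IGFBP5 was near 0 throughout HT29 and HCT116 and had little room to differ between them. INSR was also the 1 member that differed between SW480 and HT29, by -2.93 (SE 0.30, limma adjusted p = 3.24e-07), where 15.8% did. Averaging the rounds of each clone left the first at an adjusted p of 0.0903 and kept the second at 0.00841. Between SW480 and HCT116 0 members differed, with 13.2% of all genes differing. There 3 members had an unadjusted limma p under 0.05, and edgeR also gave 0. The INSR levels of the 3 lines lay closer together in KO than in WT cells: group means were 343, 698 and 295 normalized counts in HT29, HCT116 and SW480 KO, and 66.3, 654 and 419 in WT.

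How much of each member's variation lay between genotypes differed by line. The sum of squares of the log2 values was divided into KO against WT, clones of a genotype, and rounds of a clone. For INSR, KO against WT took 90.2% in HT29 and 86.2% in SW480 but 7.64% in HCT116. IGFBP4 and IGFBP6 in SW480 gave 89.5% and 85.7%. For IGF2 the clones took the largest part in every line, with 50.3% in HT29, 71.2% in HCT116 and 60.9% in SW480. For IGF2R in HT29 the rounds took 84.8%. These shares are descriptions and carry no test.

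**Figure D4:**
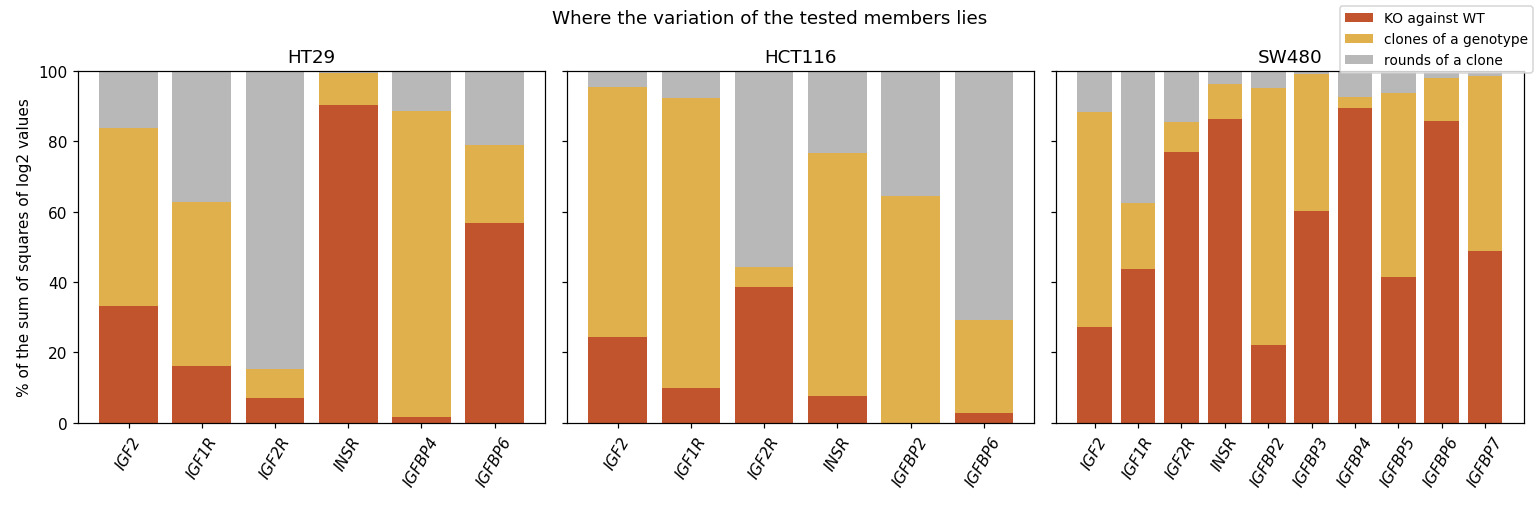
Shares of the sum of squares of log2 values for the members tested in each line, stacked to 100%, for KO against WT (orange), clones of a genotype (yellow) and rounds of a clone (gray). INSR in HT29 and INSR, IGFBP4 and IGFBP6 in SW480 are mostly orange, at 85.7% to 90.2%, and IGF2 is mostly yellow in the 3 lines.

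The other genes of the pathway were taken from 6 lists of 67 genes in all, none of them a member. Those with a log2 change over 1 and a mean of at least 100 are named, up to 3 each way in a line, and the others named here were chosen after their values were seen. In HT29, 46 were tested and 2 rose, in HCT116 50 were tested with 9 rising and 7 falling, and in SW480 54 were tested with 25 rising and 12 falling. Over all genes, HT29 had 2.08% rising and 0.476% falling, HCT116 had 8.05% and 5.93%, and SW480 had 26.1% and 22.1%, which are the shares to read the counts of each list against. Their median log2 difference was -0.15, -0.04 and 0.23 in HT29, HCT116 and SW480, beside 0.03, -0.01 and -0.00 over all genes tested. The members tested had medians of 0.51, 0.10 and 0.21.

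Of the other ligands and carriers, INS had 0 reads in every library and IGF1 stayed at or below 8.69 normalized counts. Of these 7 genes 2 were tested, both in SW480, where IGFBP1 rose and IGFBPL1 fell. IGFBP1, a binding protein made mainly in liver, lies 18584 bases from IGFBP3 on chromosome 7, and went from 1.96 to 13.1 normalized counts in SW480 WT to 51.4 to 89.6 in KO. It was higher in both clones, by 3.02 in KO 17 and 3.63 in KO 21 on the log2 scale (limma log2 difference 3.33, SE 0.43, adjusted p = 1.19e-04). IGFBP1 passed the filter on low values in SW480 only through its KO libraries. A high KO value was needed for it to be tested, so this call is a weak guide.

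Of 9 genes listed as IGFBP proteases or inhibitors of such proteases, 1 of 3 tested rose in HT29, 1 of 3 in HCT116 and 5 of 6 in SW480. Of all genes 2.08%, 8.05% and 26.1% rose in these lines. None of those tested fell, and ADAM12 and PAPPA2, below the filter in SW480, had lower means in KO than in WT, 0.709 against 2.92 and 3.06 against 9.28 normalized counts. ADAM28, also below the filter there, went the other way. Every KO library was above WT, by 3.36 in KO 17 and 4.86 in KO 21 on the log2 scale. PRSS23, a serine protease placed on this list, was the riser in HT29 and in HCT116 and was not called in SW480. Whether it cuts IGFBPs was not tested. In HT29 PRSS23 rose from 491 to 648 normalized counts in WT to 897 to 1811 in KO (log2 difference 1.29, SE 0.24, limma adjusted p = 0.0289). In HCT116 PRSS23 rose from 63.1 to 152 in WT to 359.7 to 868 in KO (log2 difference 2.47, SE 0.32, limma adjusted p = 6.07e-04). PAPPA, the metalloproteinase that cuts IGFBP4, rose in SW480 from 25.7 to 73.4 normalized counts in WT to 145 to 197 in KO (log2 difference 1.87, SE 0.33, limma adjusted p = 8.99e-04). STC1 and STC2, which inhibit PAPPA, rose in SW480 too, by 2.03 and 1.23 on the log2 scale, and so did HTRA1 and ADAM9, by 0.88 and 1.02.

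Of 19 adaptors and receptor regulators, 1 of 16 tested rose in HT29, 3 rose and 5 fell of 18 in HCT116, and 8 rose and 4 fell of 17 in SW480. Of all genes 8.05% rose and 5.93% fell in HCT116, and 26.1% and 22.1% in SW480. The HT29 gene was ENPP1, a membrane protein that binds INSR, at 0 to 4.94 normalized counts in WT and 18.1 to 26.6 in KO (log2 difference 2.85, SE 0.58, limma adjusted p = 0.0411). ENPP1 passed the filter on low values in HT29 only through its KO libraries. A high KO value was needed for it to be tested there, so this call is a weak guide. ENPP1 rose in SW480 from 111 to 158 in WT to 345 to 451 in KO (log2 difference 1.59, SE 0.14, limma adjusted p = 6.41e-06). GRB10, an adaptor that restrains INSR and IGF1R, rose in SW480 from 613 to 984 in WT to 1955 to 2368 in KO (log2 difference 1.45, limma adjusted p = 2.98e-05). It fell in HCT116 by 0.81 on the log2 scale (limma adjusted p = 0.00514). IRS2 rose in HCT116 from 129 to 327 in WT to 332 to 766 in KO (log2 difference 1.38, limma adjusted p = 0.0238) while IRS1 fell by 0.84 on the log2 scale (adjusted p = 0.00761). In SW480 the direction was the other one for both: IRS2 fell by 0.68 and IRS1 rose by 0.35 on the log2 scale (limma adjusted p = 0.0173 and 0.00298). SOCS2, a feedback inhibitor of growth factor signals, fell in SW480 by 1.32 on the log2 scale (limma adjusted p = 6.44e-05).

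Of 21 genes of the PI3K-AKT-FOXO and mTOR arm, 19 were tested in HT29 with 0 called by limma, 19 in HCT116 with 4 rising and 1 falling, and 20 in SW480 with 6 rising and 5 falling. The SW480 counts lie near the shares of all genes there, 26.1% rising and 22.1% falling, and in HCT116 8.05% of all genes rose and 5.93% fell. PHLPP1, a phosphatase of AKT, rose in HCT116 by 1.92 on the log2 scale (limma adjusted p = 0.00378) and fell in SW480 by 0.95 (adjusted p = 0.00160). FOXO1, a transcription factor that AKT keeps out of the nucleus, also rose in HCT116 and fell in SW480, by 0.95 and 0.89 on the log2 scale (limma adjusted p = 0.0136 and 6.38e-04). PIK3R1, the main regulatory subunit of PI3K, fell in SW480 by 1.04 on the log2 scale (limma adjusted p = 5.46e-05).

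Around IGF2, 2 of the 5 locus RNAs and mRNA-binding proteins were tested in HT29 with 0 called, 4 in HCT116 with 1 falling, and 3 in SW480 with 1 rising and 1 falling, lists too short to set against the shares of all genes. IGF2BP3, which binds IGF2 mRNA, fell in HCT116 from 2221 to 3368 normalized counts in WT to 744 to 1895 in KO (log2 difference -1.32, SE 0.25, limma adjusted p = 0.00752). It rose in SW480 by 0.64 on the log2 scale (limma adjusted p = 0.00621), where IGF2BP1 fell by 0.41 (adjusted p = 0.00965). Of 6 genes for the mannose-6-phosphate route and receptor processing, 0 of 6 were called in HT29, 1 rose in HCT116, and 4 rose and 1 fell in SW480, beside 26.1% and 22.1% of all genes in SW480. FURIN, the protease that cleaves the INSR and IGF1R precursors, rose by 0.68 on the log2 scale in HCT116 and by 0.36 in SW480 (limma adjusted p = 0.00235 and 0.00292). PCSK6, a related protease, fell in SW480 from 381 to 557 normalized counts in WT to 24.5 to 67.2 in KO (log2 difference -3.51, SE 0.28, limma adjusted p = 4.45e-06).

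Beside these results, marker lists moved as follows. Of 7 colon epithelial markers, 1 of 6 tested rose in HT29 (KRT19), 2 rose and 1 fell in HCT116, and 0 rose and 2 fell in SW480 (CDX2 and EPCAM). All HCT116 KO libraries lay above WT for EPCAM and CDH1 and below WT for CDX2. Over all genes of SW480, 26.1% rose and 22.1% fell. The shares were 8.05% and 5.93% for HCT116, and 2.08% and 0.476% for HT29. The marker list is too short to set against these shares. The summed TPM of the 7 ranged from 10778 to 14735 in HT29 WT and from 15031 to 17605 in KO, from 5364 to 6225 and 5121 to 7466 in HCT116, and from 5576 to 7264 and 5653 to 6351 in SW480. The 4 markers of other cell types found in the files summed to at most 10.8 TPM in any library. The part of these in the members' differences was not tested.

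Genes most like each member in pattern were sought over the means of the 12 clones, among 11763 genes whose normalized count averaged 100 or more, by Pearson's r of log2 values. INSR was closest to GALNT1 (r = 0.961) and RBPMS2 (r = 0.951), and IGF2 to WSB2 (r = 0.952) and PSME3 (r = 0.936). IGF1R was closest to GUSBP1 and DDX50 (r = 0.979 and 0.975), and IGF2R to SRGAP2C and EDARADD (r = 0.988 and 0.987). IGFBP2 was closest to CACHD1 and TMEM121 (r = 0.997 and 0.995), IGFBP3 to LHFPL6 and TIGD6 (r = 0.983 and 0.980), and IGFBP4 to CBR1 and ACOT2 (r = 0.991 for each). IGFBP6 was closest to CETN2 and HLA-H (r = 0.984 and 0.980), and IGFBP7 to DERL2 and SWI5 (r = 0.979 and 0.978). Clones of a line share its background, so these values largely follow levels between lines and carry no test.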

How the data were processed

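RNA of 24 libraries from 3 lines was sequenced from libraries of a TruSeq kit that does not mark strand. Per the labels and the study's methods, the authors aligned reads to GRCh37 with STAR 2.7.5b, counted them per gene with featureCounts 2.0.1 and divided them by DESeq2 size factors. The deposited signal values are therefore normalized counts, 1 column per library. The gene annotation was not given in the sources used here. All values were whole multiples of 1 read (100% within 0.001 reads), which recovered 22297049 to 29068378 reads per library. The authors' 3 comparison tables hold fold changes and p-values and were not used.

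Genes with at least 10 normalized counts in at least 4 libraries were fitted with limma 3.58.1 (trend and robust) on log2 of the value plus 1, per line for KO against WT, with Benjamini-Hochberg adjustment over all genes. The test was also run on simulated counts with known changes. These held no spread between clones or rounds, so they do not show how the test handles such spread. On recovered reads edgeR 4.0.16 called 327, 2214 and 7847 genes in HT29, HCT116 and SW480, DESeq2 1.42.0 called 1229, 2961 and 8139, and limma 382, 2154 and 7857. Other alternatives changed the pseudocount to 0.1 or 5, the scaling, the filter or the replicates. TPM used merged exon lengths. Intervals and the floor of 3 reads cover counting error only. Rounds were taken to pair libraries where every correlation of their deviations was over 0.1, which held in HCT116 (6 of 6 pairs, 0.18 to 0.37) but not in HT29 (2 of 6) or SW480 (1 of 6). Members are all named. Other pathway genes were named at adjusted p under 0.05, log2 change over 1 and a mean of at least 100, at most 3 each way per line, and the others named were chosen after their values were seen. The members and lists were chosen with earlier results of these data known. One further gene list is not reported here.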

Additional observations from a re-analysis of the deposited data

Results flagged for a closer look

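INSR differed in its KO effect between lines: the difference of log2 changes was -2.30 for HCT116 minus HT29 (limma adjusted p = 3.40e-05) and -2.93 for SW480 minus HT29 (limma adjusted p = 3.24e-07).

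In 3 of 46 groups of 4 libraries, 1 library lay farther from the others than Dixon's 95% critical value for 4 samples allows, as chance does in about 1 in 20 groups. They were IGF1R in SW480 WT 4B, at 1390.3 normalized counts (gap over range 0.961), IGF2R in HT29 WT 11B, at 1549.9 (0.839), and INSR in HCT116 KO 44A, at 623 (0.868).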

How the results depend on the processing

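Of 1029 recomputed member differences, 949 kept their direction and side of the threshold, 41 lost a call, 16 gained one and 23 changed sign, of which 0 were called. The members called by KO went from 1 to 2 with DESeq2 and 0 with rounds averaged in HT29 (1 to 2 leaving out a library or clone), from 0 to 1 without the filter or with the round as a block in HCT116 (0 to 1), and from 6 to 2 with rounds averaged in SW480. In SW480 the block, where rounds did not pair the libraries, left IGFBP7 at a limma adjusted p of 0.0525 and 5 calls. Between WT lines, leaving out a library or clone gave 4 to 8 calls for SW480 against HT29 and 5 to 8 for SW480 against HCT116. Members whose KO effect differed went from 1 to 0 with rounds averaged for HCT116 against HT29 (1 to 2 leaving 1 out) and from 1 to 2 with edgeR for SW480 against HT29 (1 to 2), and were 0 to 1 for SW480 against HCT116. The causes were not tested, other than that rounds averaged leave 2 samples a group. Leaving out a library or clone turned these uncalled log2 differences: in HCT116 IGF2 (-1.59 to 0.030), IGF1R (-0.19 to 0.67), INSR (-0.12 to 0.35), IGFBP2 (-0.23 to 0.24) and IGFBP6 (-0.084 to 0.26), in HT29 IGF2R (-0.44 to 0.023) and IGFBP4 (-0.62 to 0.95), in SW480 IGF2 (-0.89 to 0.023) and IGFBP2 (-0.046 to 0.48), and between HCT116 and HT29 WT IGF2 (-0.80 to 0.17) and IGF2R (-0.27 to 0.080). At the ends of these ranges IGF2 passed without HCT116 KO 47 and without SW480 WT 5, and IGFBP2 without SW480 KO 17. Depth limits the members near 0 reads. Without the filter, 1 of those below it passed in KO against WT, IGFBP3 in HCT116, in a fit whose median log2 difference over all genes was 0.24.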
